A study of Homo sapiens with 1 sample.

Results

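The vascular endothelial growth factor (VEGF) system and its companions were examined in the human kidney tumour line 786-O, a clear cell renal cell carcinoma (ccRCC) line in long use, by the assay for transposase-accessible chromatin with sequencing (ATAC-seq), in which the Tn5 transposase cuts and tags open DNA. The genes were 10 of 20033 protein-coding genes and comprised the ligand genes VEGFA, VEGFB, VEGFC and PGF, the genes of the secreted factors ANGPTL4 and ADM, the genes of the receptor tyrosine kinases FLT1 and KDR, and the genes of the co-receptors NRP1 and NRP2. They were chosen by name, with earlier results of these data known. A peak was counted for a gene when its summit, the position of highest coverage, lay inside the gene or within 100 kb of either end, and 191 of the 88615 peaks on the 24 primary chromosomes of hg38 did so. The data were the peak list of 1 library from 786-O cells that carried an empty vector, the control to which the study compared cells overexpressing the chromatin remodelling factor DPF3a. The overexpressing library was not analysed here. Nothing was replicated, and the values are therefore a description of a single library without p-values. Genes and peaks are not replicates of a condition. The intervals given for counts, shares and medians take peaks or reads as independent draws. They cover neither the spread between genes of a role nor that between libraries.

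Secreted VEGF ligands act on receptor tyrosine kinases of endothelial cells. KDR is the main signalling receptor for VEGFA, FLT1 binds VEGFA, VEGFB and placental growth factor, and the neuropilins NRP1 and NRP2 bind VEGF ligands and class 3 semaphorins and lack a kinase domain of their own. Clear cell carcinomas are known for loss of VHL, which targets the hypoxia-inducible factors for degradation, and 786-O is a line without functional VHL. VEGFA, ANGPTL4 and ADM are known targets of these factors, which bind DNA at hypoxia response elements (HREs). The pairing of tumour cells that secrete the ligands with endothelium that carries the receptors is the textbook arrangement, and the comparison of ligand genes with receptor genes followed from it.

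The strength of a peak is given as its fold, the coverage at the summit plus 1 over the genome-wide background plus 1. The background was 0.941 and the coverage behind each fold was a whole number, so exact Poisson 95% intervals of that number were turned into intervals of the fold, which cover counting error only. Since summits were picked for their height, these coverages are biased upward. The deposited list ended at a coverage of 9, a fold of 5.15 (2.64–9.32), and the median fold of all peaks was 10.8. Of the 191 peaks around these genes, 71 (37.2%) had a coverage under 15, where the interval is wide, and the median coverage was 20. The lowest score in the list was 52, and weaker peaks, if any were called, are not in it. A gene without a listed peak was not detected as open at this depth and this lowest score. A promoter was taken as the 1 kb before and the 100 bp after the start of any annotated transcript. Coverage was not corrected for the copy number of the DNA, which varies along a tumour genome. The median fold of all peaks within 5 Mb of each gene window ranged from 9.28 to 12.9 among the 10 genes.

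The names of the peaks in the list carried a wild-type tag, whereas the sample is labelled as an empty-vector control, and the label was followed. The markers of the cell line were checked next, which does not tell these apart. A promoter peak was present in 61.4% of all protein-coding genes. The share was 52.2% when only the canonical transcript of each gene was used. Among genes that mark a renal carcinoma line of this kind, 6 had a promoter peak, namely VIM at a fold of 47.9, KRT8 at 43.3, PAX8, a renal lineage transcription factor, at 31.9, CDH2 at 25.8, PAX2 at 22.7 and KRT18 at 8.24. CA9, a known target of the hypoxia-inducible factors, had none. The windows of the 10 angiogenic genes had no alternative copy in the hg38 sequence, which could have taken their reads. Of 13 endothelial genes, 3 had a promoter peak, ROBO4 at a fold of 22.2, CLDN5 at 12.9 and EMCN at 5.15. The 10 without one were PECAM1, CDH5, VWF, ERG, TAL1, SOX17, SOX18, ESAM, TEK and TIE1. With canonical transcripts only, VIM and CLDN5 had no promoter peak.

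With the promoter definition used, promoter peaks were found in as many ligand genes as receptor genes. A promoter peak was present in 5 of the 10 genes, beside 61.4% of all protein-coding genes. VEGFA and VEGFC had a promoter peak among the 4 ligand genes, ADM had one and ANGPTL4 none among the other secreted factors, and NRP1 and NRP2 had one among the 4 receptor genes. FLT1 and KDR, the receptor kinases, had none. The highest promoter fold was 37.1 (29.1–46.7) in NRP2, 35.6 (27.7–44.9) in NRP1, 29.9 (22.8–38.6) in ADM, 26.3 (19.6–34.5) in VEGFA and 13.4 (8.85–19.5) in VEGFC. Each is the highest over all annotated starts, which numbered 15 in NRP2, 13 in NRP1, 6 in ADM, 15 in VEGFA and 2 in VEGFC. The values of NRP2 and NRP1 were at internal starts, each of 1 transcript. That of NRP2 is annotated as retaining an intron and that of NRP1 as protein-coding. At their first starts the folds were 31.4 (24.1–40.3) and 30.9 (23.7–39.7). The intervals of NRP2, NRP1, ADM and VEGFA overlapped, and that of VEGFC ended at 19.5, just under the lower end of VEGFA at 19.6. The median over all 12299 genes with a promoter peak was 25.8, with quartiles of 16.0 and 39.2.

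**Figure D1:**
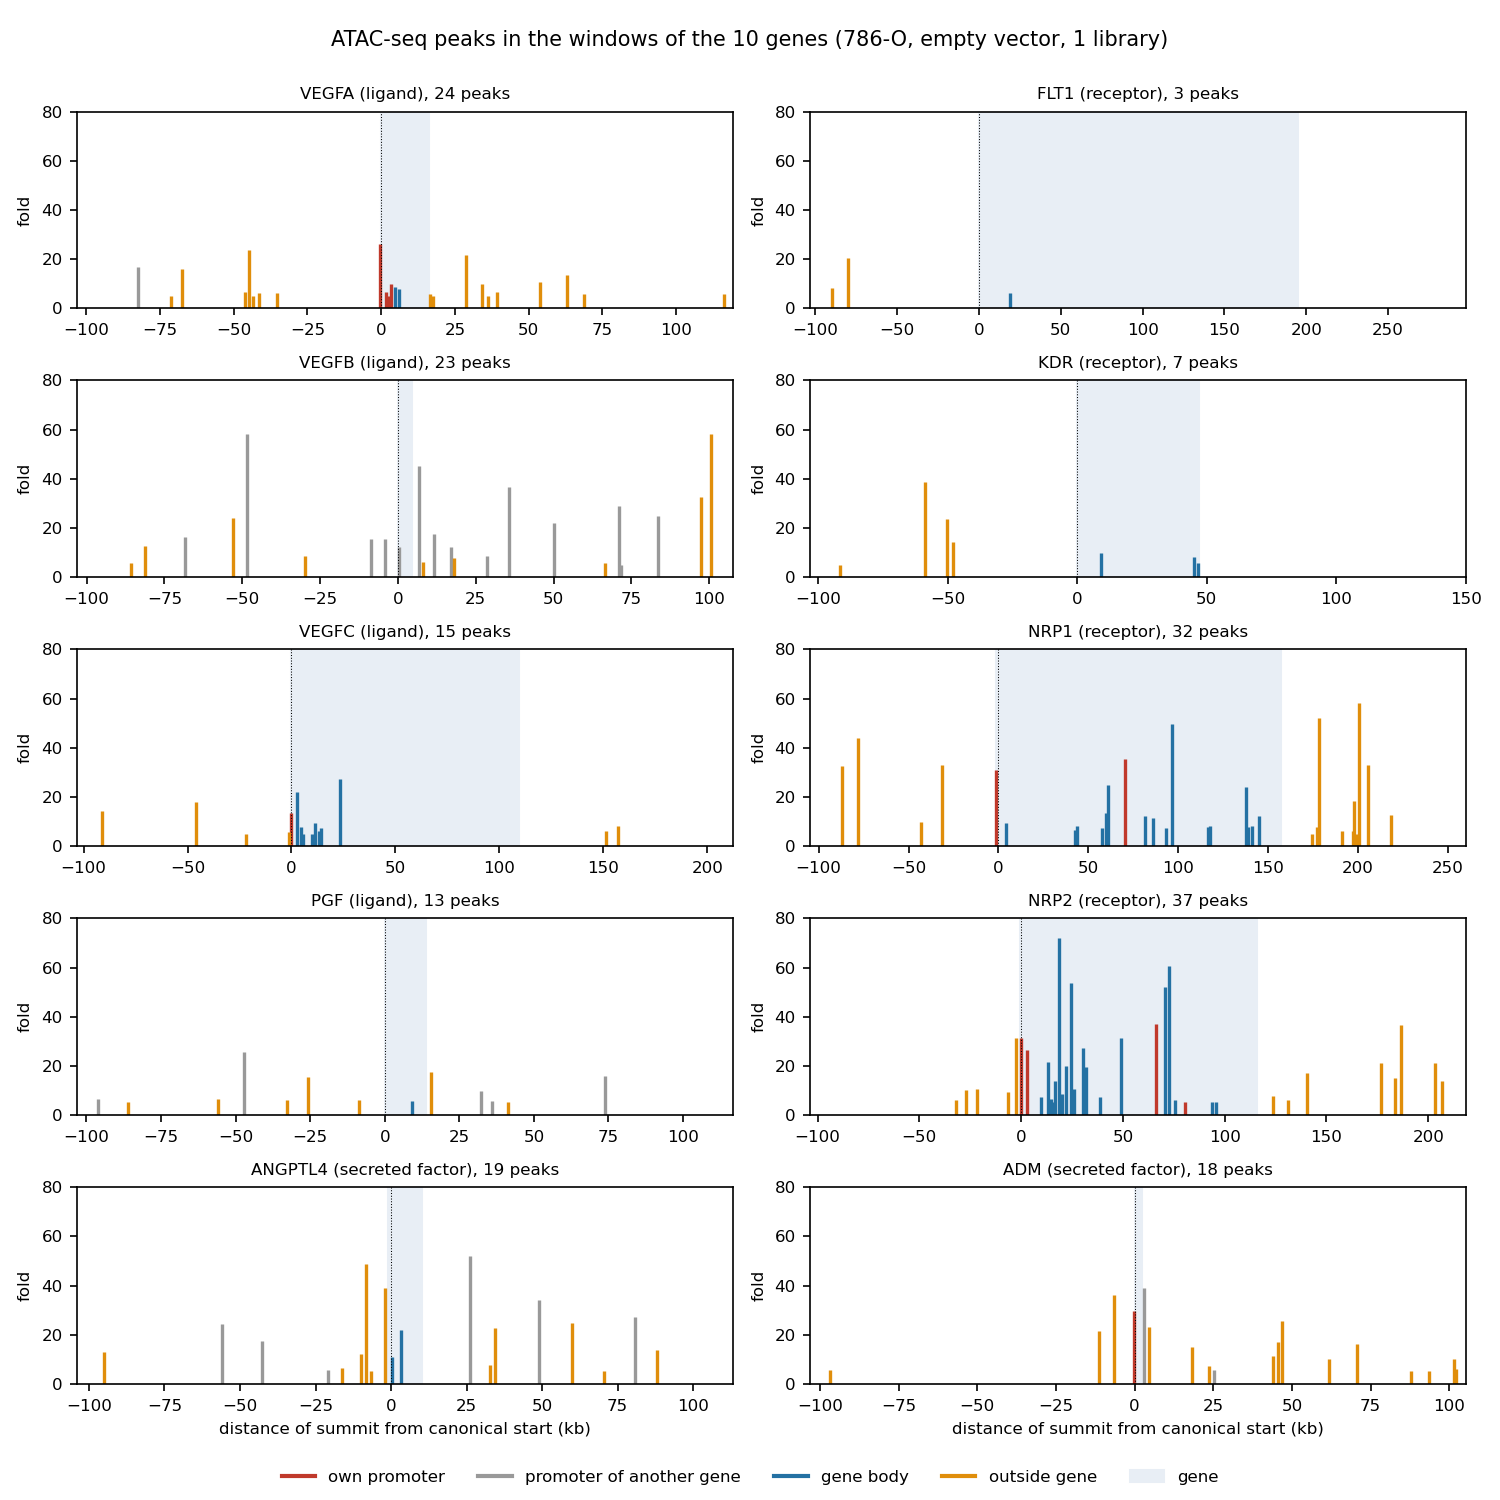
Peaks in the windows of the 10 genes, plotted by distance of the summit from the canonical transcription start in kb (horizontal axis) and by fold (vertical axis), with 1 panel per gene, the gene shaded, and lines coloured by whether the summit was at a promoter of the gene, at a promoter of another gene, in the gene body or outside the gene. FLT1 holds 3 peaks and KDR 7, none of them at a promoter, whereas NRP1 holds 32 and NRP2 37.

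VEGFA encodes the principal angiogenic ligand and lies at chr6:43770184-43786487 on the plus strand. Its main promoter peak, chr6:43769034-43771271, ran from 1177 bp upstream to 1060 bp downstream of the canonical start, covered all of the canonical promoter and had its summit 296 bp upstream at a fold of 26.3. The gene had 3 weaker promoter peaks at starts inside the gene, at folds of 6.70 (3.71–11.3), 5.15 (2.64–9.32) and 9.79 (6.01–15.2), with summits 1.73 kb, 2.40 kb and 3.31 kb downstream of the canonical start. The 2 further peaks of the gene body had folds of 8.76 and 7.73. All peaks inside VEGFA were thus weaker than its main promoter peak, with intervals that did not overlap it. The strongest peaks outside the gene lay 44.9 kb upstream at a fold of 23.7 (17.4–31.5), 28.8 kb downstream of the start at 21.6 (15.7–29.2) and 82.5 kb upstream at 17.0, the last at the promoter of MRPS18A, a mitochondrial ribosomal protein gene. The sequence around the main summit, that around the downstream peak and the HRE known from studies of hypoxic VEGFA induction, which lies 974 bp upstream of the start and inside the main peak, are shown because they carry HRE letters in open chromatin. Here and in the sequences that follow, letters run 5′ to 3′ along the strand of the gene, 50 bases to both sides of the summit unless stated, and capitals mark the letters of the motifs searched, namely ACGTG or GCGTG for the HRE, TGACTCA or its reverse complement TGAGTCA for AP-1, CCGGAA for ETS factors, GGAATG for TEAD, TGTGGT for RUNX, AGATAA for GATA and the CTCF core, each on both strands.
VEGFA main promoter summit, chr6:43769865-43769965, plus strand: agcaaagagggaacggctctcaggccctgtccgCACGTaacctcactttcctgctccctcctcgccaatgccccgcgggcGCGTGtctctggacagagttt
VEGFA upstream HRE, chr6:43769215-43769259, plus strand: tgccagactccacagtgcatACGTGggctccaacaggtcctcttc
VEGFA downstream peak, chr6:43798990-43799090, plus strand: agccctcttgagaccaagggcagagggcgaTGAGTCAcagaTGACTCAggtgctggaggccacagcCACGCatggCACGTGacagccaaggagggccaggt

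The main VEGFA summit held HRE letters at 2 places, and the downstream peak held AP-1 letters at a pair of places close together and the letters CACGTG. This palindrome reads ACGTG on both strands, so it was counted as 2 overlapping matches. It is also the letters of an E-box, which other factors such as MYC bind.

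VEGFB, the ligand of FLT1 known for roles in heart and fat, had no promoter peak. It lies at chr11:64234584-64239264 on the plus strand in a stretch crowded with genes. The nearest peak, chr11:64234787-64235298, had its summit 376 bp inside VEGFB at a fold of 12.4 (8.03–18.3), covered none of the canonical promoter, and lay in the promoter of an antisense long non-coding gene, ENSG00000256116. VEGFB had 23 peaks in its window, and 14 of them were at promoters of other genes. The strongest were at the promoter of STIP1, a co-chaperone gene, and of the non-coding ENSG00000289486, 48.6 kb upstream at a fold of 58.2 (48.0–70.0), 101 kb downstream outside promoters at 58.2, and at the promoter of FKBP2 and ENSG00000286264, 6.88 kb downstream at 45.3 (36.4–55.8). None of the 22 peaks outside VEGFB had the VEGFB start as the nearest protein-coding start.

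VEGFC encodes the main lymphangiogenic ligand and lies at chr4:176683538-176792922 on the minus strand. Its promoter peak, chr4:176791506-176793245, had its summit at the canonical start and a fold of 13.4, higher than in 18.5% of the genes with a promoter peak. Stronger peaks lay in its introns, 23.2 kb from the start at a fold of 27.3 (20.5–35.7) and 2.72 kb from it at 22.2 (16.1–29.8), and another intronic peak at 11.1 kb had 9.28. The intronic 27.3 lay above the promoter value of VEGFC with intervals that did not overlap. Outside the gene the strongest folds were 18 at 46.0 kb upstream, 14.4 at 91.3 kb upstream and 8.24 at 157 kb downstream of the start. The summit of the strongest intronic peak is shown because it opens with AP-1 letters.
VEGFC intron, chr4:176769672-176769772, minus strand: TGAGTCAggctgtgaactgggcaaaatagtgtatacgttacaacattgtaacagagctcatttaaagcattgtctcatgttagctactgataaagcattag

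PGF, the gene of placental growth factor, had no peak close to its start. It lies at chr14:74941834-74955626 on the minus strand. It had no promoter peak, 0 bases of its start region within 3 kb were in a peak, and the nearest summit was 8569 bp upstream of the canonical start at a fold of 6.18. Its only peak inside the gene, in an exon 9.02 kb from the start, had a fold of 5.67 (2.99–9.99). The strongest of its 12 outside peaks were at the promoters of EIF2B2, a translation initiation factor gene, at a fold of 25.8 (19.2–33.9), and of DLST, a mitochondrial enzyme gene, at 16.0, with a peak outside promoters 15.4 kb downstream of the start at 17.5 between them in strength.

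ANGPTL4, a secreted inhibitor of lipoprotein lipase, had a weak peak across its start and stronger peaks beside it. The gene lies at chr19:8363289-8374370 on the plus strand. No summit was in a promoter of ANGPTL4, but the peak chr19:8363858-8364709, with its summit 387 bp downstream of the canonical start in an exon and a fold of 10.8 (6.81–16.4), covered 36.1% of the canonical promoter. Counted by any overlap with a promoter, ANGPTL4 would join the genes with a promoter peak, and 65.7% of all protein-coding genes had such an overlap. Its highest fold would then be 39.2, from an upstream peak that overlapped the promoter of another ANGPTL4 start. The summit of that peak was 1159 bp from the nearest start of the gene. Stronger peaks lay 2.03 kb upstream at a fold of 39.2 (30.9–49) and 8.33 kb upstream at 49 (39.7–59.8), and another in an intron 3.34 kb downstream at 22.2 (16.1–29.8). All of them exceeded the peak at the start, with intervals that did not overlap it except for the intronic peak, whose lower end was 16.1 against 16.4. The strongest outside peak of the window, at 52.0, was at the promoters of RAB11B, RAB11B-AS1 and MIR4999, 26.0 kb downstream. The summit 2.03 kb upstream held HRE letters.
ANGPTL4 upstream peak, chr19:8362080-8362180, plus strand: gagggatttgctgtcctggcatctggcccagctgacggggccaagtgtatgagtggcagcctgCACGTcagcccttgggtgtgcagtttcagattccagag

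ADM encodes adrenomedullin, a vasodilator peptide, and lies at chr11:10305073-10307397 on the plus strand. Its promoter peak, chr11:10301670-10306360, was 4.69 kb wide, wider than 99.9% of all peaks, and covered all of the canonical promoter. The summit lay 266 bp upstream of the start, at a fold of 29.9, in a stretch that is also promoter to a transcript of the neighbouring gene SBF2. A second peak 2.97 kb downstream of the start, chr11:10307003-10308817, was at the promoter of AMPD3, an AMP deaminase gene, with a fold of 39.2 (30.9–49). The next strongest peaks lay 6.49 kb upstream at 36.1 (28.2–45.5) and 46.8 kb downstream at 25.8 (19.2–33.9). As with VEGFB, ADM had no outside peak, of 18, whose nearest protein-coding start was its own, and the summit of the promoter peak itself was 70 bp from a start of SBF2. The downstream summit is shown because HRE letters occur at 2 places close together.
ADM downstream peak, chr11:10307994-10308094, plus strand: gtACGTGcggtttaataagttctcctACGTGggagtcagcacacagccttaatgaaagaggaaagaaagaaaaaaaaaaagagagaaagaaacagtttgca

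FLT1, the receptor for VEGFA, VEGFB and placental growth factor, had the fewest peaks of the 10 genes. It lies at chr13:28300346-28495145 on the minus strand. Within its 194.8 kb there was 1 peak, in an intron 18.9 kb from the start, at a fold of 6.18 (3.34–10.7), and peaks covered 0.121% of the gene against a median of 2.15% over 8005 protein-coding genes of 40 kb or more. No summit lay in the 275.9 kb from the downstream edge of the window to that peak. Both other peaks were upstream, 79.8 kb away at a fold of 20.6 (14.8–28.0) and 90.03 kb away at 8.24 (4.84–13.3), the latter nearer to the start of POMP. The promoter of FLT1, 300 bases from RefSeq (GRCh38.p14), is shown as a start without a peak, with capitals for HRE letters alone, together with the summit of the stronger upstream peak, which held a pair of AP-1 letters and HRE letters.
FLT1 promoter, chr13:28495079-28495378, minus strand: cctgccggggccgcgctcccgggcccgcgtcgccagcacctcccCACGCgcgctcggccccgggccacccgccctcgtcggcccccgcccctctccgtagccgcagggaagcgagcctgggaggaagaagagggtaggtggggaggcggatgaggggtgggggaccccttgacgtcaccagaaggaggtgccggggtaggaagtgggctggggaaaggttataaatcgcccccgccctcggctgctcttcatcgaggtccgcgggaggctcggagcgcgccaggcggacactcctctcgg
FLT1 upstream peak, chr13:28574832-28574932, minus strand: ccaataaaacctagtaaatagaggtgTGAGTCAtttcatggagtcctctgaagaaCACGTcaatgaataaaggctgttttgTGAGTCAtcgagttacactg

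KDR, the main VEGFA receptor, had no peak at its start but had strong peaks upstream. It lies at chr4:55078481-55125595 on the minus strand. Its gene body held peaks at folds of 9.79 (6.01–15.2) in an intron 9.03 kb from the start, 8.24 (4.84–13.3) at 45 kb and 5.67 (2.99–9.99) in an exon at 46.5 kb, all below the median fold of all peaks. Upstream, a cluster of peaks lay 48.1 kb, 50.4 kb and 58.7 kb from the start, with folds of 14.4 (9.68–20.8), 23.7 (17.4–31.5) and 38.6 (30.5–48.4), and a weak peak at 91.5 kb had 5.15. All 4 upstream peaks had KDR as the nearest protein-coding start. The 38.6 was above the folds of 91.7% of all peaks in the list, and its summit held none of the motifs searched. The KDR promoter, also 300 bases from RefSeq and searched for HRE letters alone, held 0 matches and had no peak.
KDR promoter, chr4:55125546-55125845, minus strand: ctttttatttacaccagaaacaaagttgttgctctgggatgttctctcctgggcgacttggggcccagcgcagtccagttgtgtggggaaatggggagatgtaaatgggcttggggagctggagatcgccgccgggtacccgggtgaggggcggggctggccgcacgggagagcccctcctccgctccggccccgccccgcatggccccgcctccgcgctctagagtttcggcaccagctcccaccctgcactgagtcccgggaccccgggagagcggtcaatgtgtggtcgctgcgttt
KDR upstream peak, chr4:55184294-55184394, minus strand: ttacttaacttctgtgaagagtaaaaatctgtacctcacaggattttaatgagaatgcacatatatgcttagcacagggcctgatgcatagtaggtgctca

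NRP1, a co-receptor for VEGFA and for semaphorins, had peaks along its whole length and around it. It lies at chr10:33177492-33336262 on the minus strand and held 18 peaks inside the gene and 14 outside it. The promoter peak at the first starts, chr10:33333752-33337626, was 3.88 kb wide and covered all of the canonical promoter, with a fold of 30.9 (23.7–39.7), and its summit lay 1374 bp upstream of the canonical start at the start of another transcript. The other promoter peak, at 35.6, was at an internal start 70.2 kb into the gene. With canonical transcripts only, under which 52.2% of all protein-coding genes had a promoter peak, NRP1 lost its promoter call by summit although a peak spanned the canonical promoter. The strongest body peaks had folds of 49.5 (40.1–60.4) at 96.6 kb, 24.7 at 61.2 kb and 24.2 at 138 kb from the start. The strongest outside peaks had 58.2 (48.0–70.0) and 52.0 (42.4–63.2) beyond the 3′ end, 200.4 kb and 179 kb from the start, and 43.8 (35–54.1) at 78.1 kb upstream. The strongest outside summit held a pair of AP-1 letters and a CACGTG.
NRP1 peak beyond the 3′ end, chr10:33134177-33134277, minus strand: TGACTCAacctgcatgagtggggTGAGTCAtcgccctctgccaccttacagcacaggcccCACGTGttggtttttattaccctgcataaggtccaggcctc

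NRP2, a co-receptor for VEGFC and for semaphorins, had the most peaks and the strongest single peak of the 10 genes. It lies at chr2:205681990-205798133 on the plus strand. Its promoter peaks were at the canonical start with a fold of 31.4 (24.1–40.3), at internal starts 3.06 kb and 66.3 kb downstream with 26.3 (19.6–34.5) and 37.1, and at another 80.5 kb downstream with 5.15 (2.64–9.32). The first 3 of these did not differ beyond counting error. The calls at 3.06 kb and 66.3 kb each rested on 1 transcript annotated as retaining an intron. Inside the gene, 20 peaks lay outside promoters, and the strongest of them had folds of 72.1 (60.7–85.1) in an exon 18.4 kb from the start, 60.8 (50.4–72.8) at 72.5 kb and 53.6 (43.8–64.9) at 24.6 kb. The interval of the strongest lay above that of every NRP2 promoter peak, and its fold exceeded those of 99.0% of all peaks. The strongest outside peaks had folds of 36.6 at 186 kb and 21.1 at 177 kb downstream of the start and 31.4 at 2.29 kb upstream. The canonical start and the exonic summit are shown because they are the canonical start with a peak and the strongest site among the 10 genes. The former held none of the motifs and the latter RUNX letters.
NRP2 start, chr2:205682456-205682556, plus strand: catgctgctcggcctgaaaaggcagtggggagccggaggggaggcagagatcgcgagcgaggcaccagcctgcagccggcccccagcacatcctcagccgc
NRP2 exonic peak, chr2:205700816-205700916, plus strand: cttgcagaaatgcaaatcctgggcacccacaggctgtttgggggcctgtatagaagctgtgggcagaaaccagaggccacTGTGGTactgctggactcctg

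The base composition of the start did not separate promoters with a peak from those without among the 10 genes. The GC content of the 300 bases around the canonical start was 73.3% in FLT1, 65% in KDR, 66.3% in ANGPTL4, 77.7% in PGF and 84.7% in VEGFB, all without a promoter peak, and 56.3% in NRP1, 65% in ADM, 70.0% in NRP2, 71.0% in VEGFA and 76.3% in VEGFC, all with one. Among protein-coding genes within 5 percentage points of the same GC content, 75.3% had a promoter peak for FLT1 and 72.0% for KDR.

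**Figure D2:**
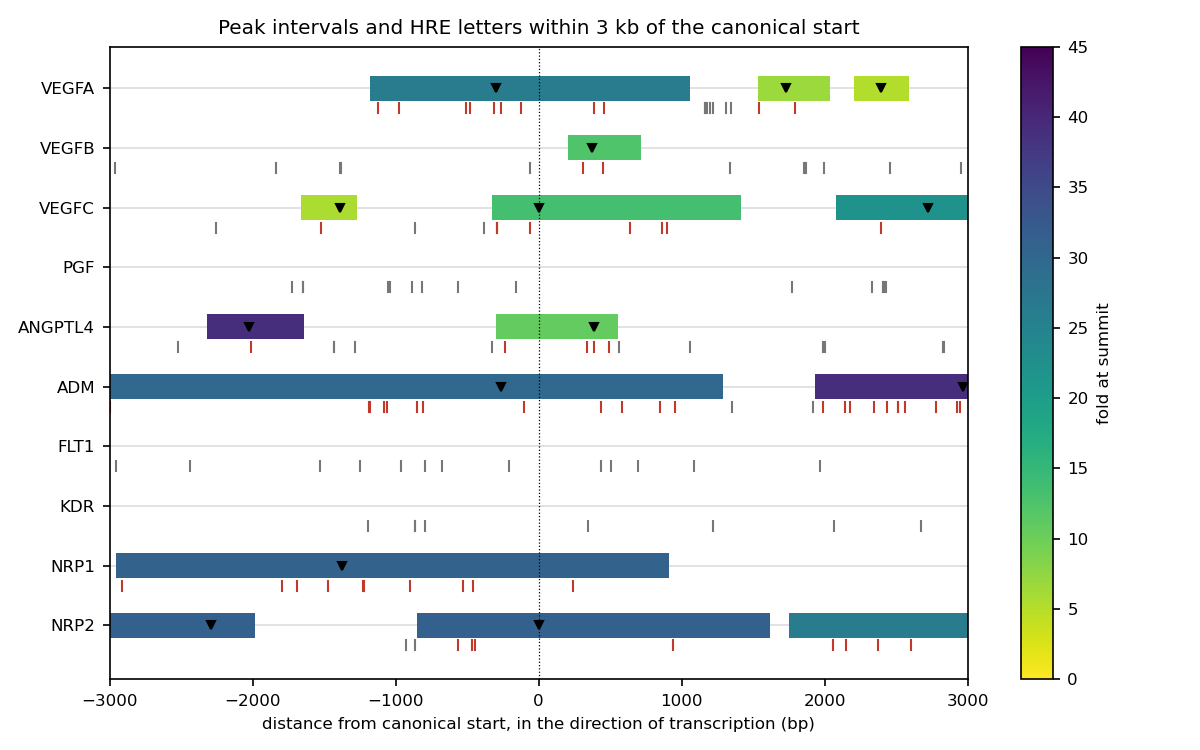
Peaks and HRE letters within 3 kb of the canonical start of each gene, with the distance from the start in bp on the horizontal axis, 1 row per gene, bars for peak intervals coloured by fold, triangles for summits, and ticks for HRE letters, red inside a peak and grey outside. PGF, FLT1 and KDR have no bar, whereas peaks cover 89.3% of the stretch at ADM and 78.9% at NRP2.

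HRE letters stood near every start, and their number inside peaks is given beside the share of the same stretch that peaks covered. How far the covered share accounts for that number was not tested. Within 3 kb of the canonical start, ADM had 23 of its 25 HRE matches in a peak, VEGFA 11 of 18, NRP1 10 of 10, NRP2 8 of 10, VEGFC 8 of 11, ANGPTL4 5 of 16 and VEGFB 2 of 13. Peaks covered 89.3% of this stretch at ADM, 52.2% at VEGFA, 64.6% at NRP1, 78.9% at NRP2, 50.8% at VEGFC, 25.5% at ANGPTL4 and 8.53% at VEGFB. PGF, FLT1 and KDR had 0 of 15, 0 of 13 and 0 of 8, as no peak lay in the stretch. The letters are short, and 48.4% of 35116 RefSeq promoters of 300 bases held at least 1 match. These promoters are shorter than the stretches counted here, so that share is not a background for the counts. Of the 10 genes, 8 were matched in the RefSeq promoter table.

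The number of peaks split the receptor genes into pairs. Per 100 kb of window, FLT1 had 0.760 peaks (0.157–2.22) and KDR 2.83 (1.14–5.84), whereas NRP1 had 8.92 (6.10–12.6) and NRP2 11.7 (8.24–16.1), with the median over all protein-coding genes at 4.44 and quartiles of 2.47 and 6.88. Together, FLT1 and KDR had 1.56 (0.747–2.86) from 10 peaks and NRP1 and NRP2 10.2 (7.95–12.9) from 69, with counting intervals that did not overlap. Of all protein-coding genes, 8.15% had a lower density than FLT1, 29.4% than KDR, 88.0% than NRP1 and 96.6% than NRP2. The ligand genes lay between 4.85 (2.71–8.0) in VEGFC and 11.2 (7.12–16.9) in VEGFB, with PGF at 6.08 (3.24–10.4) and VEGFA at 11.1 (7.11–16.5), and the secreted factors had 9.0 (5.42–14.1) in ANGPTL4 and 8.90 (5.27–14.1) in ADM. The intervals of VEGFA, VEGFB, PGF, ANGPTL4, ADM, NRP1 and NRP2 overlapped.

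**Figure D3:**
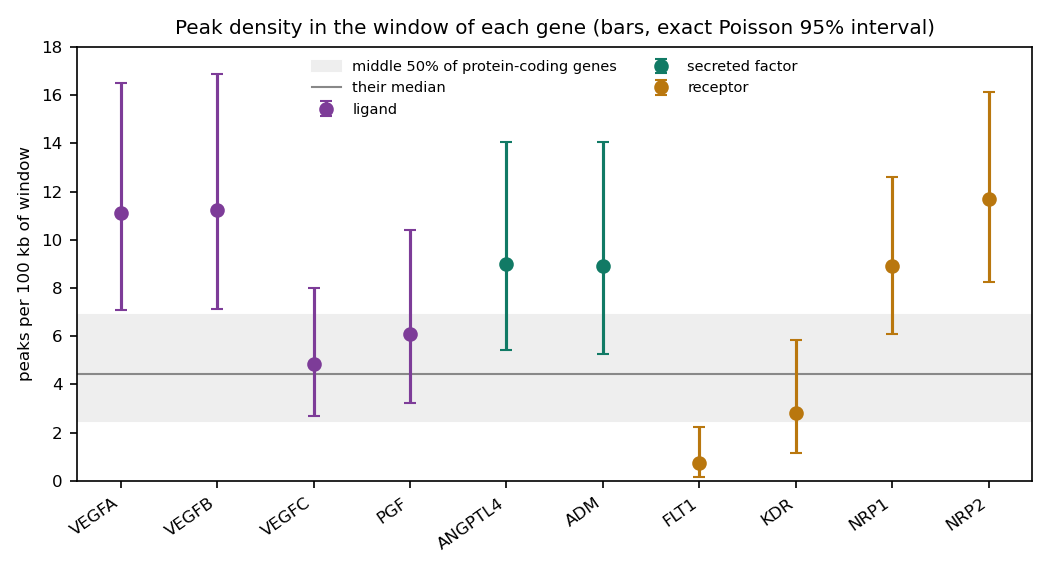
Peaks per 100 kb of window (vertical axis) for each gene (horizontal axis), coloured by role, with exact Poisson 95% intervals as bars, the range between the quartiles of all protein-coding genes as a grey band and their median as a line. FLT1, at 0.760, lies below the band, and VEGFA, VEGFB, ANGPTL4, ADM, NRP1 and NRP2 lie above it.

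By role, the ligand genes had 7.94 peaks per 100 kb (6.25–9.96), the secreted factors 8.95 (6.30–12.3) and the receptor genes 6.0 (4.75–7.48). These intervals overlapped. Peaks at promoters of other genes made up 20 of 75 (26.7%) at the ligands, 8 of 37 (21.6%) at the secreted factors and 0 of 79 at the receptors. Without any promoter peaks, the ligand genes had 5.30 (3.93–6.98) and the receptor genes 5.54 (4.35–6.97) per 100 kb, which did not differ beyond counting error, beside a median of 2.91 over all protein-coding genes. When outside peaks were kept only where the nearest protein-coding start was that of the gene itself, the order turned, with 3.81 at the ligands, 1.69 at the secreted factors and 5.92 at the receptors.

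Inside long genes the neuropilins again had the most peaks. Peaks outside promoters numbered 17.2 per 100 kb of gene body in NRP2 and 10.1 in NRP1, more than in 99.5% and 96.0% of the 8005 protein-coding genes of 40 kb or more, whose median was 2.21. KDR had 6.37, more than 86.2% of them, VEGFC 7.31, more than 89.8%, and FLT1 0.513, more than 22.4%. Peak intervals covered 20.7% of NRP2, 8.67% of NRP1, 5.04% of VEGFC and 3.37% of KDR. KDR was thus above the median in the number and cover of its body peaks, while FLT1 was below it in both.

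Peaks outside promoters had a lower median fold at the ligand genes than at the receptor genes, with overlapping intervals. The median fold was 6.70 (6.18–8.76, 50 peaks) at the ligands, 12.6 (7.73–21.6, 28 peaks) at the secreted factors and 10.8 (8.24–14.9, 73 peaks) at the receptors, where the intervals are those of a median from the order of its values, and it was 9.28 over all 71445 peaks outside promoters. The interval of the ligands overlapped that of the receptors between 8.24 and 8.76. In the gene body the medians were 7.73 for ligands (11 peaks), 16.5 for secreted factors (2 peaks, both in ANGPTL4) and 9.02 for receptors (40 peaks). Outside the gene they were 6.70 (39 peaks), 12.6 (26 peaks) and 14.4 (33 peaks). Among single genes the median ran from 6.18 at PGF and 6.70 at VEGFA to 12.9 at ANGPTL4 and 13.9 at NRP2. The 10 peaks of FLT1 and KDR had a median of 9.02 and the 63 of NRP1 and NRP2 of 11.3, whereas their numbers of peaks per 100 kb were 1.56 and 10.2. Folds of at least 30.4, the value that the strongest 10% of all peaks outside promoters reached, were found at 2 of these peaks of the ligand genes, both at VEGFB, 3 of the secreted factors and 15 of the receptors, of which KDR had 1 and the neuropilins 14.

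**Figure D4:**
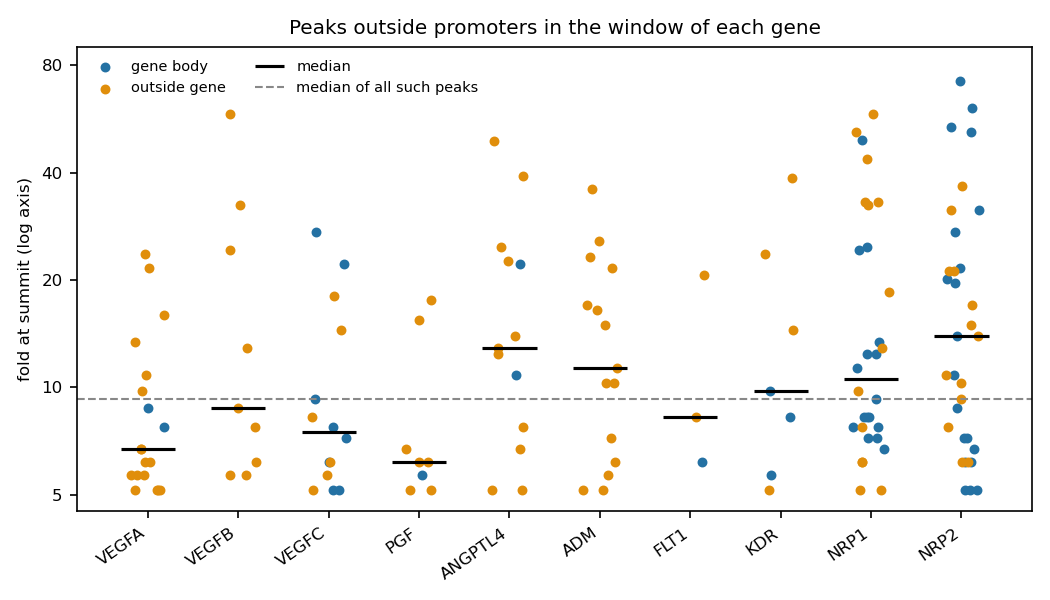
Fold at the summit (vertical logarithmic axis) of each peak outside promoters, by gene (horizontal axis), with points coloured by gene body or outside the gene, a bar at the median of each gene and a dashed line at the median of all such peaks. VEGFA has a median of 6.70 and NRP2 of 13.9, and the strongest peak, at 72.1, is in NRP2.

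Motif letters at the summits were counted within 50 bp to both sides. HRE letters were in 42 of the 191 summit windows (22.0%, 16.3–28.5), against 16.0% of all peaks, with 26.6% of all peaks at promoters and 13.4% of the others. Outside promoters the share was 28 of 151 (18.5%, 12.7–25.7), an interval that held the 13.4%. The share was 37.8% (22.5–55.2) at the secreted factors, 14 of 37, from 8 of 19 peaks of ANGPTL4 and 6 of 18 of ADM. These included summits at promoters of other genes, namely RPS28, NDUFA7, KANK3, MARCHF2 and HNRNPM at ANGPTL4 and AMPD3 at ADM. Others lay near the start of ANGPTL4, whereas the summit of the ADM promoter peak held no HRE letters. The HRE share was 20% at the ligands, 15 of 75, with 5 each at VEGFA and VEGFB, and 16.5% at the receptors, 13 of 79, with 8 at NRP1, 4 at NRP2, 1 at FLT1 and 0 at KDR. Those at VEGFB included summits at the promoters of MACROD1, DNAJC4, PPP1R14B and ESRRA.

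The remaining motifs had shares over the 10 genes whose intervals held the share among all peaks. AP-1 letters were in 25 windows (13.1%, 8.65–18.7) against 15.7% of all peaks, with 8 of 32 at NRP1 and 5 of 37 at NRP2. TEAD letters were in 22 (11.5%) against 9.41%, from 4 of 75 windows at the ligands and 14 of 79 (17.7%, 10.04–27.9) at the receptors. Of the 79 receptor peaks, 73 lay outside promoters. TEAD letters were in 10.3% of all peaks outside promoters, a share within the receptor interval, and in 5.56% of those at promoters. RUNX letters were in 26 (13.6%) against 12.6%, GATA letters in 8 (4.19%) against 4.57%, ETS letters in 4 (2.09%) against 2.98% and the CTCF core in 7 (3.66%) against 2.80%. The HRE share over all peaks of the 10 genes was the exception among the 7 motifs, its interval starting at 16.3% against 16.0%, and the exact binomial intervals were not adjusted for the number of motifs and roles compared. HRE and RUNX letters can overlap, and did so at an intronic NRP1 peak.

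Promoter peaks were also counted in the wider VEGF and neuropilin systems, beside the 61.4% of all protein-coding genes that had one. VEGFD and FLT4, the lymphatic ligand and receptor genes, had no promoter peak, nor did any of the 5 genes of the angiopoietin system (ANGPT1, ANGPT2, ANGPT4, TEK and TIE1) or the 3 genes of the adrenomedullin receptor (CALCRL, RAMP2 and RAMP3). All 5 plexin genes of the list, which encode signalling partners of neuropilins, had one, from 8.24 in PLXNA3 through 10.3 in PLXND1, 10.8 in PLXNA4 and 19.1 in PLXNA2 to 27.3 in PLXNA1. Other plexin genes were not counted. Among class 3 semaphorins, the secreted neuropilin ligands, 6 of 7 genes had one, led by SEMA3C at 82.4 (70.2–96.2) and SEMA3A at 35.6, and SEMA3E had none. With canonical transcripts only, PLXNA4 and SEMA3D lost theirs. This left 4 plexin and 5 semaphorin genes with a promoter peak, beside 52.2% of all protein-coding genes. The angiopoietin genes lay between 0.892 and 5.40 peaks per 100 kb, and the plexin genes between 5.24 and 11.4. The endothelial genes among these, TEK and TIE1, also belonged to the endothelial list of the label check.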

How the data were processed

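ATAC-seq measured open chromatin in 1 library of 786-O cells with an empty vector. According to the study's methods and the submitters' processing notes, the authors used fastp for trimming and Bowtie2 2.3.4.3 for alignment to hg38, removed mitochondrial, poorly mapped and duplicate reads, and called peaks with MACS2 2.2.6 on this library alone against a single genome-wide background. A Tn5 shift of the reads is not stated, so summits may be off by some bases. The deposited ratio is the fold of summit coverage over that background. The deposited −log10 p-values and q-values and the deposited score, 10 times the −log10 q-value, come from the peak caller, and the lowest score was 52. The authors' values are uncorrected for copy number. Total read depth is unknown.

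Coverages were recovered from the folds and were whole to within 1.83e-05. They were between 9 and 300. Genes, transcripts and sequences came from GENCODE release 44 and the hg38 sequence, and promoters of FLT1 and KDR from RefSeq. Peaks, genes and motifs were counted with Python 3.11.15, pandas 2.3.3, numpy 2.4.6 and scipy 1.17.1, with Clopper-Pearson intervals for shares. Alternative copies were sought with minimap2 2.31 over 261 alternative sequences (alignments of at least 10 kb, divergence up to 5%). The counting was tested on simulated data. Named were all 10 genes with every promoter peak and up to 3 of the strongest body and outside peaks, and the genes of the lists, of which 1 marker gene is not reported here. Genes and lists were chosen with earlier results of these data known. No test between groups was possible with 1 library. Alternatives varied the score minimum, promoter definition, window, peak assignment, background, roles and motif width.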

Additional observations from a re-analysis of the deposited data

How the results depend on the processing

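No paired analysis was possible because the data hold a single library, and no replicate could be left out. The order of the roles by peaks per 100 kb turned under assignment to the nearest start. Among the alternative values of the results on which the comparisons rest, 89 stayed within their margin and 33 moved. The margins were wide. A rise from 5 to 7 genes with a promoter peak counted as staying, so these counts do not measure stability. The number of genes with a promoter peak rose to 8 within 2.5 kb of a start, with 4 ligand and 2 receptor genes. Within 1 kb to both sides of a start, 3 ligand and 2 receptor genes had one. The secreted factors reached 2 within 1 kb or 2.5 kb or by overlap. With canonical transcripts, the receptors fell to 1 beside 2 ligands. The counts of ligand and receptor genes were thus equal with the promoters used and by overlap, but not under the other promoter definitions. FLT1 and KDR had no promoter peak under any of these definitions. The median promoter fold of the ligands was 12.9 within 2.5 kb, and the ratio of the medians, receptor to ligand, was 1.83 with the promoters used (36.3 against 19.8, from 2 genes each), 3.27 within 1 kb and 3.40 within 2.5 kb. With canonical transcripts only, it was 1.58, from 1 receptor gene at 31.4 and 2 ligand genes. A score minimum of 100 or 200 is by construction also a minimum on the fold. It lowered the peaks per 100 kb to 4.55 and 3.28 (ligands), 4.40 and 3.04 (receptors) and 7.56 and 5.33 (NRP1 and NRP2), and at 200 to 5.32 (secreted factors) and 0.623 (FLT1 and KDR). It raised the median fold outside promoters to 14.4 and 19.8 (ligands), 17.0 and 24.2 (receptors) and 17.8 and 24.7 (NRP1 and NRP2), and at 200 to 22.2 (secreted factors). Windows of 50 kb gave 10.1 peaks per 100 kb at the ligands and windows of 200 kb 6.02 at the secreted factors, and assignment to the nearest start gave 3.81 and 1.69, against 5.92 at the receptors. With 100 bp around the summits, HRE letters were in 34.0%, AP-1 in 23.6%, TEAD in 20.9% and RUNX in 25.7% of windows, against 27.9%, 25.7%, 17.0% and 21.8% of all peaks, and the CTCF core was in 1.08% at a score above 200. A peak near the lowest coverage of 9 has a wide interval. A gene without a peak was only not detected at this depth and at the lowest score of the list, 52.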
